A study of Homo sapiens with 18 samples.

Results

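The 39 protein-coding HOX genes of the human genome were followed through fibroblasts with less or more of PURPL, a long noncoding RNA. They were chosen by symbol (HOX, a cluster letter A to D and a number) among the entries typed as protein-coding, and made up 39 of the 61544 genes listed in each table. HOX genes encode homeodomain transcription factors that give cells their position along the body axis. They lie in 4 clusters, and within a cluster the order of the genes follows the order in which they are used, from the anterior (low paralogue numbers, hindbrain and neck) to the posterior end (paralogue group 13, digits, genitalia and tail). Skin fibroblasts keep the HOX pattern of the site they came from in culture, so the set that a fibroblast line expresses is a record of its origin. BJ, the line used here, was derived from foreskin.

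Poly(A) RNA of BJ cells was sequenced in 18 libraries, 3 in each of 6 groups. In the knockdown experiment, sgPURPL-1 and sgPURPL-2 (labelled sgRNA-PURPL#1 and sgRNA-PURPL#2) carried guide RNAs against PURPL for CRISPR interference, in which a guide brings a repressor to a gene, and sgCtrl carried a control guide. In the overexpression experiment, PURPL-OE-1 and PURPL-OE-2 (labelled PURPL#1-OE and PURPL#2-OE) overexpressed PURPL and were set against their own control, Ctrl. All groups were made in the same line, with no time point or drug given, and the labels name neither the repressor nor the vector or promoter used. A difference in construct between PURPL-OE-1 and PURPL-OE-2, or their origin from single clones, is not stated. Separate cultures are not stated for replicates either; p-values therefore measure only how far these samples spread, and that spread may be technical. The molecule is labelled genomic DNA although the protocol describes RNA, and the protocol was followed.

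Libraries held 11444513 to 12896040 counts in the knockdown experiment and 18858976 to 27985649 with overexpression. PURPL measured 14.1 to 17.9 CPM, the count relative to the TMM-scaled size of its library, with sgPURPL-1, 17.9 to 21.5 CPM with sgPURPL-2 and 71.1 to 94.3 CPM in sgCtrl. It measured 166 to 178 CPM in PURPL-OE-1, 114 to 129 CPM in PURPL-OE-2 and 59.2 to 67.3 CPM in Ctrl, so its level followed the labels in every library. All 10 fibroblast markers were detected in every group, and 3 or 4 of 8 keratinocyte markers, KRT1 among them, were at 0 in each group, with a summed level of at most 15.7 CPM over the 8. The sum of 3 smooth muscle markers (MYH11, DES and LMOD1) was 222 to 240.3 CPM in PURPL-OE-1, 218 to 251 CPM in PURPL-OE-2 and 115 to 144 CPM in Ctrl, and thus moved with overexpression. The fibroblast sum did so too, at 28527 to 29741 CPM in PURPL-OE-1, 30831 to 32063 CPM in PURPL-OE-2 and 23488 to 23999 CPM in Ctrl. In the knockdown table the smooth muscle sum was 88.0 to 103 CPM with sgPURPL-1, 131 to 151 CPM with sgPURPL-2 and 95.9 to 113 CPM in sgCtrl, so it moved with sgPURPL-2. The keratinocyte sum was lower with the guides, at 11.3 to 13.6 CPM with sgPURPL-1 and 11.2 to 12.7 CPM with sgPURPL-2, against 14.0 to 15.7 CPM in sgCtrl. The part of these markers in the HOX results of either table was not tested. In RNA from whole cultures, fewer expressing cells and less RNA per cell cannot be told apart.

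Whether a HOX gene could be measured at all depended on its neighbours. The clusters are dense, and the annotated spans of their genes overlap on the same strand. Across the tables, none of the 9429 genes lying wholly inside another gene of the same strand had a count in any library, against 43.6% of 10950 genes inside a gene of the opposite strand only and 51.1% of 22705 genes that overlap nothing. Counting thus followed the strand and left out reads that fell on 2 genes of 1 strand. Of the 39 HOX genes, 15 overlapped no gene of their strand, 12 overlapped one in part, and 12 lay wholly inside another.

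The 12 enclosed genes had 0 counts in all 18 libraries, because no base of their span was left in which a read could be assigned to them. HOXA4, HOXA5 and HOXA6 lie inside HOXA3, HOXB4 and HOXB5 inside HOXB3, HOXB8 and HOXB9 inside HOXB7, and HOXD4 inside HOXD3. In the HOXC cluster, HOXC6, HOXC8 and HOXC9 lie inside ENSG00000273049, an entry with no symbol in the tables, and HOXC8 and HOXC9 also inside HOXC6. HOXC5 lies inside HOXC4. Their zeros say nothing of their expression. Another 3 genes had 0 counts although bases were free: HOXB6, where HOXB3 leaves 80 of 9242 bases, HOXB1, which overlaps nothing, and HOXD1, with 2181 of 2240 bases free. For HOXB1 and HOXD1 the zeros are measurements, and 3 counts, the limit that a count of 0 allows, correspond to between 0.107 and 0.261 CPM in a library, for counting error only.

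**Figure D1:**
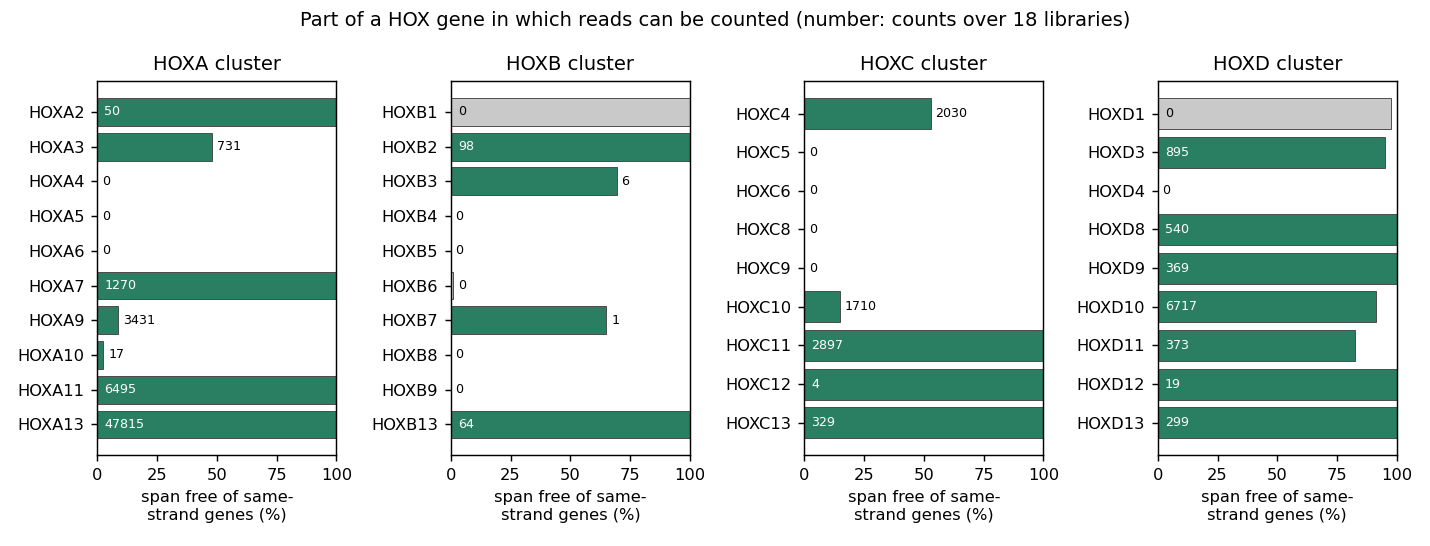
Percent of the annotated span of each HOX gene shown (horizontal axis) that no other gene of the same strand covers, in 4 panels by cluster with genes from anterior (top) to posterior (bottom); the number beside or in each bar is the count summed over all 18 libraries. Genes with no bar have 0 counts, and the grey bars of HOXB1 and HOXD1 and the thin one of HOXB6 mark genes with free bases but 0 counts.

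The other 24 genes had counts. Overlap thinned some of them: HOXA10 kept 248 free bases of 9657 and had 17 counts in all 18 libraries together, HOXA9 kept 1097 of 12743 and HOXC10 780 of 5215. Counts of these and of HOXA3, HOXC4, HOXD3, HOXD10 and HOXD11, whose spans are also covered in part, are those of the uncovered part and are uncertain as totals. HOXB7 had 1 count, HOXC12 4, HOXB3 6, HOXD12 19, HOXA2 50 and HOXB13 64 over the 18 libraries, and with HOXA10 these 7 genes passed the filter on low counts in neither table. The filter kept 16 HOX genes in the knockdown experiment, and the same 16 plus HOXB2 in the other. Comparisons concern these 17 tested genes, not the family.

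Among the HOX genes that could be counted, the pattern of the cells was posterior. Cluster A (chromosome 7, minus strand) gave 75.6% of HOX counts in the knockdown libraries and 80.9% in those of overexpression, cluster D (chromosome 2, plus strand) 13.8% and 10.8%, cluster C (chromosome 12, plus strand) 10.6% and 8.06%, and cluster B (chromosome 17, minus strand) 0.104% and 0.292%. A single gene, HOXA13, gave between 50.2% and 70.3% of the HOX counts of a library. HOXA13 is the most posterior gene of cluster A and is needed for hands, feet and the genital and urinary tracts, which are malformed in hand-foot-genital syndrome. These shares are over the genes that could be counted, and 12 members are missing from them. All 12 belong to paralogue groups 4 to 9, so the shares of the more posterior genes may be overstated.

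Levels were divided by the exon bases in which reads could be counted (CPM per countable exon kb) for a rough comparison between genes. Reads were counted over the whole uncovered span, introns included, but the divisor holds exons only. HOXC4 had 20669 free bases and 2241 countable exon bases, HOXA13 6589 and 5071. The part of intron reads in these levels was not tested. In sgCtrl, HOXA13 led with 24.0 ± 1.09, followed by HOXC10 with 14.5 ± 2.34, HOXD10 with 11.5 ± 1.70, HOXA11 with 11.2 ± 0.478 and HOXA9 with 7.60 ± 1.86 CPM per kb (mean ± SD, n = 3 each). HOXA13 lay above the other genes in all 18 libraries. HOXC10, HOXD10 and HOXA11 were not separated in sgCtrl, where the ranges of neighbours in that order meet, and HOXC10 rests on 692 countable exon bases. In Ctrl the order was HOXA13 with 21.7 ± 0.816, HOXA9 with 8.52 ± 0.0305, HOXD10 with 7.11 ± 0.445, HOXA11 with 6.51 ± 0.362 and HOXC10 with 3.79 ± 0.609 CPM per kb. HOXC10 thus ranked 2nd in sgCtrl and 5th in Ctrl; the tables were normalized separately, and whether the experiments or the cells differ cannot be told apart.

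**Figure D2:**
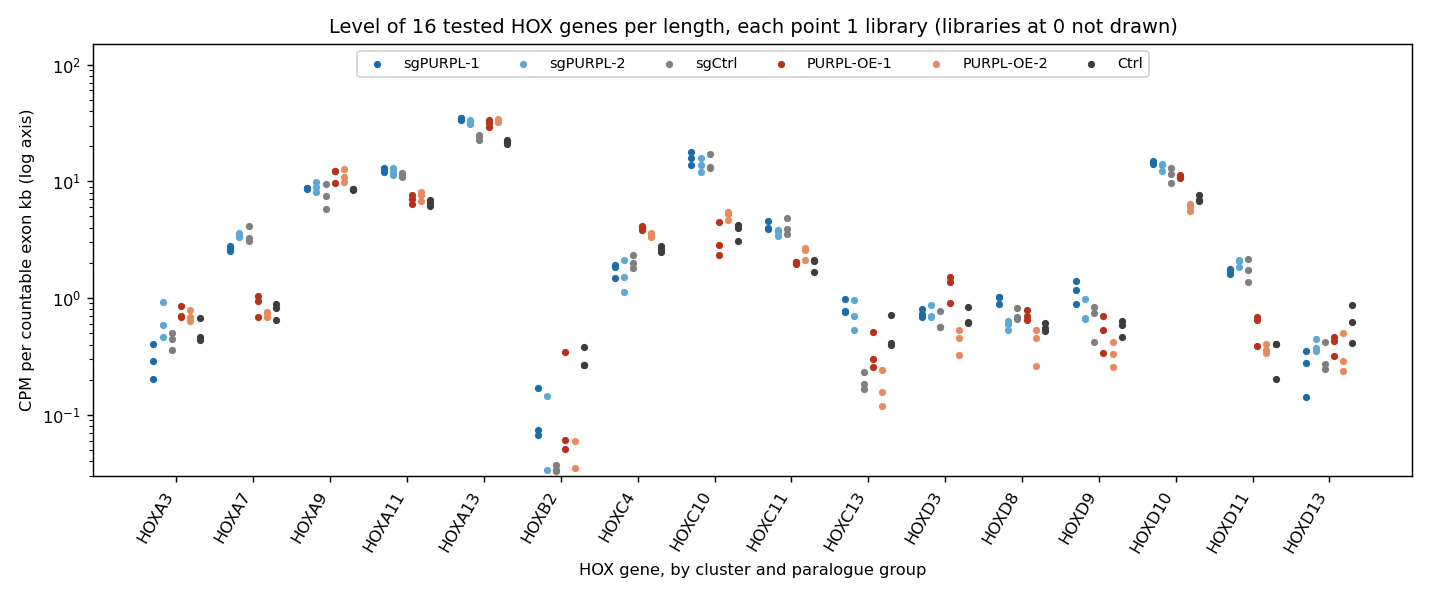
Level of 16 tested HOX genes in CPM per countable exon kb (vertical log axis) by gene, ordered by cluster and paralogue number; each point is 1 library, coloured by group, and libraries at 0 are not drawn. HOXA13 lies above every other gene in all 6 groups. HOXC10, HOXC11, HOXA7, HOXA11 and HOXD11 lie lower, and HOXC4 higher, in the 3 groups of the overexpression table than in those of the knockdown table.

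RefSeq promoter windows, from 250 bases before to 50 after a transcription start, were found for 20 of the 39 HOX genes and gave 27 windows; HOXC13, HOXC10, HOXC11 and HOXB2 are among those not matched. The windows of HOXA13 and HOXD10 are printed because the posterior pattern and several of the differences below rest on these genes. That of HOXD13, a gene of group 13 with a low level in these cells, is printed beside them. Coordinates are GRCh38.p14, the numbering of the hg38 tables, and each window reads 5′ to 3′ on the strand of its gene: chr7:27200042-27200341 (minus), chr2:176092471-176092770 (plus) and chr2:176116528-176116827 (plus). Capitals mark matches, on either strand, to CCAAT (read ATTGG on the other strand), CACGTG and TATAAA (in HOXD13 as TTTATAAA, which holds TATAAA once on each strand).
HOXA13: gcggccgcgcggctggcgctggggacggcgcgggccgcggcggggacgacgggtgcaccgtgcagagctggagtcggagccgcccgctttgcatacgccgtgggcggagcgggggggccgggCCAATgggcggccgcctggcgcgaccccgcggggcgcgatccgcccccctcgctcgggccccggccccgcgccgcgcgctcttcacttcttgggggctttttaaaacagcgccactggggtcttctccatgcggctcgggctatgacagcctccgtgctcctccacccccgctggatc
HOXD13: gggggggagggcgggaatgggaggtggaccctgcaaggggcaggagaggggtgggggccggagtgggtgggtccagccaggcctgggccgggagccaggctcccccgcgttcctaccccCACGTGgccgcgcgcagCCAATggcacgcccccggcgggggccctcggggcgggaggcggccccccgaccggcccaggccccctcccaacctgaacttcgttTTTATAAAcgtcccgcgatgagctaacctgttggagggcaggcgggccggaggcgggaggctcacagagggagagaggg
HOXD10: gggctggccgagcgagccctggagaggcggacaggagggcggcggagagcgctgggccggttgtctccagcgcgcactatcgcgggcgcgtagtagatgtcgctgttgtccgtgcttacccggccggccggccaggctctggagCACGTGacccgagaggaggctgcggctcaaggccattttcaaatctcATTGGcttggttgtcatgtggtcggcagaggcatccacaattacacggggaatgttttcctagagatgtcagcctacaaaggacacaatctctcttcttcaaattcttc

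CCAAT occurred in 34.6% of all 35116 windows of this table, CACGTG in 7.26% and TATAAA in 11.5%. All 3 printed windows held CCAAT, HOXD13 and HOXD10 also CACGTG, and HOXD13 alone TATAAA. The motif TTTACGA, which group 13 HOX proteins can bind, was in 0.541% of all windows and in none of these 3. The HOXA13 window had 76.3% G and C and 44 CpG dinucleotides, that of HOXD13 74.0% and 24, and that of HOXD10 60% and 23, against medians of 58.7% and 14 over all windows. These are matches of letters, not sites.

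With either guide against PURPL, HOXA13 and HOXC13 rose, and no other HOX gene passed the test with both guides. HOXC13 was tested only through the guide groups, where it is high, so its rise is a description. With sgPURPL-1, 3 of the 16 tested HOX genes were higher (HOXA13, HOXC13 and HOXD10) and 1 was lower. Of all genes tested, 24.5% were called in that comparison, 11.6% higher and 12.9% lower. With sgPURPL-2, 2 of 16 (12.5%) were higher and none lower, beside 24.4% of all genes, 11.9% higher and 12.4% lower. The share of HOX genes called was therefore near or under the background of each comparison, and the results concern single genes. Both comparisons share the sgCtrl libraries. The median log2 fold change of the tested HOX genes was 0.16 and 0.19, against 0.0037 and -0.0014 over all genes.

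HOXA13 (ENSG00000106031.9, chr7:27193503-27200091, minus strand, hg38) had the highest level of the group 13 genes. It measured 177, 177 and 169 CPM with sgPURPL-1, 164, 170.3 and 156 with sgPURPL-2, and 116, 126 and 124 in sgCtrl. All 6 guide libraries lay above all 3 sgCtrl libraries. The log2 fold change, here and below with its standard error, was 0.52 ± 0.0605 (adjusted p = 8.78e-08) for sgPURPL-1 and 0.42 ± 0.0606 (adjusted p = 3.2e-06) for sgPURPL-2, by edgeR's quasi-likelihood test with Benjamini-Hochberg adjustment over all genes, as for every adjusted p below. Both calls were kept under every alternative tried.

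HOXC13 (ENSG00000123364.5, chr12:53938831-53946544, plus strand), known for its part in hair and nail formation, had the largest fold change of the tested HOX genes with either guide. It had 23, 29 and 21 counts with sgPURPL-1, 20, 15 and 29 with sgPURPL-2, and 5, 7 and 5 in sgCtrl. Scaled, these were 1.79, 2.30 and 1.83 CPM with sgPURPL-1, 1.65, 1.26 and 2.27 with sgPURPL-2, and 0.434, 0.545 and 0.391 in sgCtrl. Guide and control libraries did not overlap. Its log2 fold change came to 2.09 ± 0.375 (adjusted p = 8.2e-05) and 1.90 ± 0.384 (adjusted p = 0.000377). HOXC13 passed the filter on low counts only through the guide groups, where it is high. A gene at this level had to differ to be tested at all, so its rise is a description. HOXC13 also passed the test with no such filter. HOXD13, which shapes the digits, gave no call with either guide. It measured 0.622, 0.317 and 0.784 CPM with sgPURPL-1, 0.991, 0.839 and 0.783 with sgPURPL-2, and 0.607, 0.934 and 0.548 in sgCtrl. The groups overlapped, with log2 differences of -0.29 ± 0.459 (adjusted p = 0.699) and 0.31 ± 0.421 (adjusted p = 0.645). HOXB13, the posterior gene of cluster B and a marker of the prostate, had 0 to 4 counts in each knockdown library and was not tested.

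In paralogue groups 9 to 11, HOXD10 (ENSG00000128710.6, chr2:176108790-176119937, plus strand) rose with sgPURPL-1. This gene of hindlimb and spinal motor neurons measured 30.9, 31.3 and 30.0 CPM with sgPURPL-1, 26.1, 30.0 and 29.4 with sgPURPL-2, and 20.5, 24.7 and 27.6 in sgCtrl. The sgPURPL-1 libraries lay above all sgCtrl libraries, whereas those of sgPURPL-2 overlapped them. HOXD10 changed by 0.34 ± 0.0942 (adjusted p = 0.00814) on the log2 scale with sgPURPL-1 and 0.23 ± 0.0951 (adjusted p = 0.0813) with sgPURPL-2, and no difference between the guides was detected (-0.11 ± 0.0926, adjusted p = 0.564 for sgPURPL-2 minus sgPURPL-1). Without sgCtrl replicate 1, the lowest of the controls, the sgPURPL-1 call was lost (adjusted p = 0.0659).

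HOXA11, which patterns the forearm and the uterus, measured 29.3, 30.3 and 27.9 CPM with sgPURPL-1, 30.2, 27.9 and 26.1 with sgPURPL-2, and 27.2, 25.1 and 25.4 in sgCtrl. The sgPURPL-1 libraries lay above those of sgCtrl, but neither difference passed, at 0.17 ± 0.0846 (adjusted p = 0.139) and 0.12 ± 0.0850 (adjusted p = 0.346). HOXA9, also a regulator of blood stem cells, measured 9.41, 9.59 and 9.59 CPM with sgPURPL-1, 10.8, 8.81 and 9.79 with sgPURPL-2, and 10.4, 8.25 and 6.34 in sgCtrl. The groups overlapped, and so did those of the next 3 genes. HOXC10, a gene of the lumbar region and hindlimb, measured 12.4, 10.9 and 9.59 CPM with sgPURPL-1, 8.34, 9.57 and 10.96 with sgPURPL-2, and 11.9, 9.26 and 8.93 in sgCtrl. HOXC11, likewise a lumbar and hindlimb gene, measured 14.9, 12.7 and 12.9 CPM with sgPURPL-1, 11.9, 12.4 and 11.2 with sgPURPL-2, and 15.8, 12.7 and 11.5 in sgCtrl. HOXD11, the partner of HOXA11 in the forearm of the mouse, measured 2.02, 2.22 and 2.18 CPM with sgPURPL-1, 2.64, 2.69 and 2.35 with sgPURPL-2, and 1.73, 2.18 and 2.74 in sgCtrl. The adjusted p of these 4 genes ran from 0.255 to 0.909 over both guides. HOXD9, a limb gene of the mouse, measured 2.18, 2.62 and 1.66 CPM with sgPURPL-1, 1.24, 1.85 and 1.25 with sgPURPL-2, and 0.781, 1.40 and 1.57 in sgCtrl. Its sgPURPL-1 libraries lay above all of sgCtrl, yet the difference did not pass (0.77 ± 0.309, adjusted p = 0.0683, against 0.19 ± 0.333, adjusted p = 0.730 with sgPURPL-2).

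The trunk genes of groups 4 to 8 that could be tested gave no call. HOXA7, of the thoracic region, measured 6.07, 6.74 and 6.36 CPM with sgPURPL-1, 8.59, 8.06 and 8.61 with sgPURPL-2, and 9.89, 7.86 and 7.36 in sgCtrl. Here sgPURPL-1 lay below sgCtrl without overlap, at -0.38 ± 0.147 (adjusted p = 0.0558), and sgPURPL-2 overlapped it, at 0.01 ± 0.141 (adjusted p = 0.953). HOXD8, of the trunk, measured 2.33, 2.69 and 2.702 CPM with sgPURPL-1, 1.40, 1.68 and 1.57 with sgPURPL-2, and 1.73, 2.18 and 1.80 in sgCtrl. The guides fell on opposite sides of the control, at 0.43 ± 0.249 (adjusted p = 0.226) and -0.30 ± 0.273 (adjusted p = 0.472), and sgPURPL-2 minus sgPURPL-1 was -0.73 ± 0.260 (adjusted p = 0.0786). HOXC4, of the neck region, measured 3.35, 4.12 and 4.27 CPM with sgPURPL-1, 3.39, 4.70 and 2.51 with sgPURPL-2, and 4.51, 4.05 and 5.25 in sgCtrl. The groups overlapped.

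Among the anterior genes, HOXA3 differed between the guides. HOXA3, which is needed for thymus and parathyroid, measured 0.778, 1.109 and 1.57 CPM with sgPURPL-1, 3.55, 2.27 and 1.80 with sgPURPL-2, and 1.73, 1.40 and 1.96 in sgCtrl. Neither guide differed from sgCtrl past the threshold (-0.57 ± 0.341, adjusted p = 0.241 and 0.57 ± 0.294, adjusted p = 0.163), but the guides did not overlap each other. The difference sgPURPL-2 minus sgPURPL-1 was 1.14 ± 0.318 (adjusted p = 0.0177), the only HOX gene among 16 called there, beside 9.25% of all genes (5.51% higher and 3.74% lower). It was lost without sgPURPL-1 replicate 1, sgPURPL-1 replicate 2 or sgPURPL-2 replicate 1, with adjusted p up to 0.185. HOXD3, of the neck vertebrae in the mouse, measured 2.88, 2.46 and 2.61 CPM with sgPURPL-1, 2.48, 3.11 and 2.43 with sgPURPL-2, and 2.00, 2.02 and 2.74 in sgCtrl. Its groups overlapped. HOXB2, of the hindbrain, had 0 to 5 counts per knockdown library and was not tested there.

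**Figure D3:**
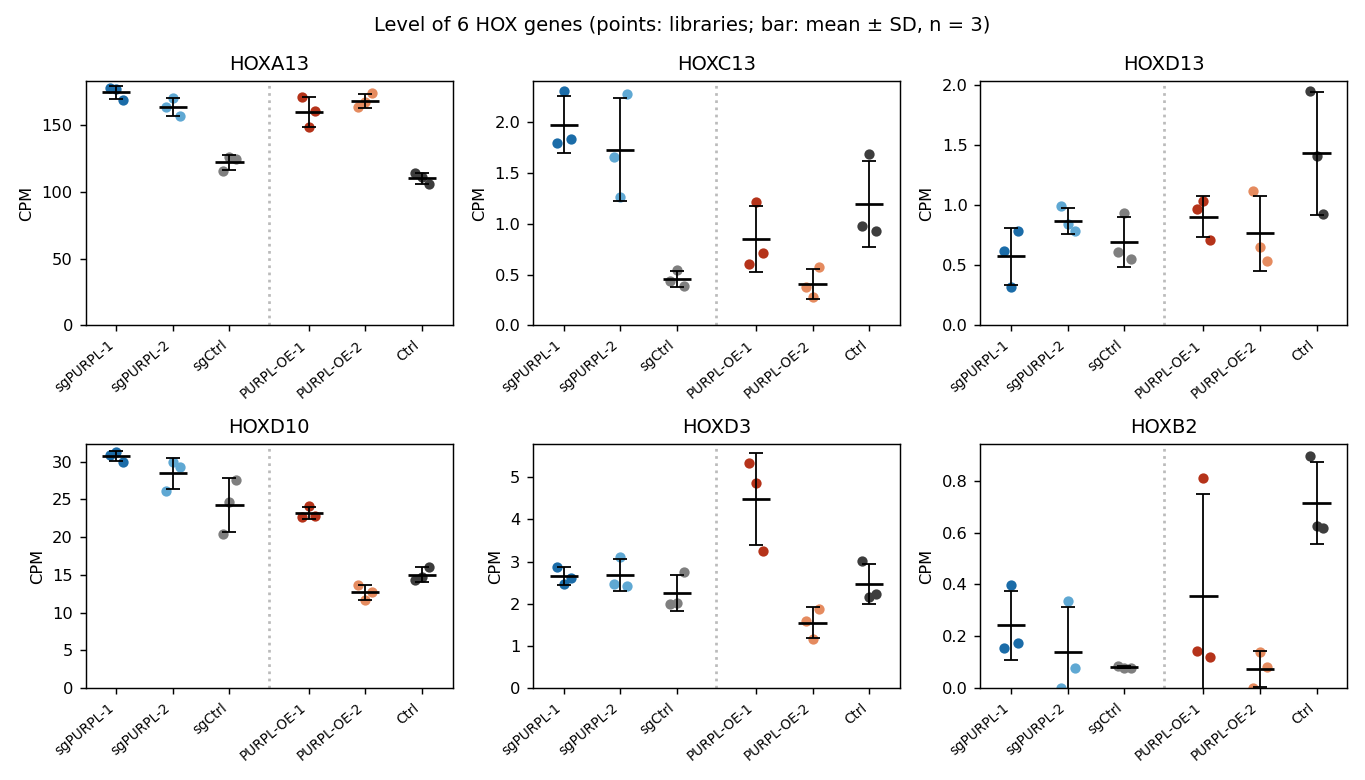
CPM (vertical axis, TMM-scaled, from 0) of HOXA13, HOXC13, HOXD13, HOXD10, HOXD3 and HOXB2 in each library; points are libraries, horizontal bars group means and whiskers ± SD (n = 3), cut at 0, and the dotted line parts the knockdown from the overexpression table. HOXA13 lies higher in all 4 arms than in their controls, HOXC13 is high with both guides and low in PURPL-OE-2, and HOXD10 and HOXD3 part PURPL-OE-1 from PURPL-OE-2.

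When PURPL was raised, HOXA13 rose as well, and HOXA9 and HOXC4 rose in both groups. In PURPL-OE-1, 6 of the 17 tested HOX genes were higher (HOXA13, HOXA9, HOXA3, HOXC4, HOXD10 and HOXD3) and none lower, which is 35.3% beside 39.6% of all genes tested (19.5% higher and 20.1% lower). In PURPL-OE-2, 3 were higher (HOXA13, HOXA9 and HOXC4) and 5 lower (HOXC13, HOXD13, HOXD10, HOXD3 and HOXB2), or 47.1% beside 38.5% (18.9% higher and 19.6% lower). These shares are again near the background of genes that changed with overexpression, and both comparisons share the Ctrl libraries. The median log2 fold change was 0.18 and -0.0031, against 0.0076 and 0.0069 over all genes.

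HOXA13 measured 171, 148 and 160.1 CPM in PURPL-OE-1, 163, 167 and 174 in PURPL-OE-2, and 114, 111 and 106 in Ctrl. None of the 6 overexpressing libraries overlapped Ctrl. The log2 fold change was 0.54 ± 0.0552 (adjusted p = 2.52e-09) in PURPL-OE-1 and 0.61 ± 0.0554 (adjusted p = 2.23e-10) in PURPL-OE-2, and the call held under all alternatives.

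HOXC13 went the other way in PURPL-OE-2. It had 17, 27 and 18 counts in PURPL-OE-1, 7, 6 and 14 in PURPL-OE-2, and 25, 43 and 18 in Ctrl. Scaled, it measured 0.608, 1.21 and 0.712 CPM in PURPL-OE-1, 0.373, 0.278 and 0.574 in PURPL-OE-2, and 0.974, 1.68 and 0.929 in Ctrl. PURPL-OE-2 lay below Ctrl without overlap, at -1.53 ± 0.402 (adjusted p = 0.00295), while PURPL-OE-1 overlapped Ctrl and did not pass, at -0.54 ± 0.351 (adjusted p = 0.240). HOXD13 measured 0.966, 1.03 and 0.712 CPM in PURPL-OE-1, 1.12, 0.648 and 0.533 in PURPL-OE-2, and 1.95, 1.41 and 0.929 in Ctrl. Both groups overlapped Ctrl, whose own libraries were far apart, and the log2 fold change was -0.68 ± 0.327 (adjusted p = 0.0993) in PURPL-OE-1 and -0.95 ± 0.345 (adjusted p = 0.0295) in PURPL-OE-2. The PURPL-OE-2 call was lost under 4 of 10 alternatives, without Ctrl replicate 1 or 2, PURPL-OE-2 replicate 3 or the second of its unnumbered libraries, with adjusted p up to 0.214. HOXB13 had 0 to 11 counts per library of this table and was not tested.

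HOXD10 moved in opposite directions in the 2 overexpressing groups. It measured 22.7, 24.2 and 22.9 CPM in PURPL-OE-1, 13.6, 11.7 and 12.7 in PURPL-OE-2, and 14.3, 14.7 and 16.1 in Ctrl. PURPL-OE-1 lay above and PURPL-OE-2 below Ctrl, neither overlapping it, with log2 fold changes of 0.63 ± 0.0885 (adjusted p = 8.89e-07) and -0.24 ± 0.0939 (adjusted p = 0.0399). The fall in PURPL-OE-2 was lost under 6 of 10 alternatives (no filter on low counts, a fit of the 6 libraries alone, and without Ctrl replicate 2 or 3, PURPL-OE-2 replicate 3 or its second unnumbered library), with adjusted p up to 0.167. The rise in PURPL-OE-1 was kept under all 10. HOXD3 showed the same directions, with 5.33, 4.86 and 3.24 CPM in PURPL-OE-1, 1.60, 1.16 and 1.88 in PURPL-OE-2, and 3.001, 2.15 and 2.22 in Ctrl. In log2 terms HOXD3 changed by 0.86 ± 0.203 (adjusted p = 0.00108) in PURPL-OE-1 and -0.67 ± 0.240 (adjusted p = 0.0281) in PURPL-OE-2, and the PURPL-OE-2 call was lost without Ctrl replicate 1 or either unnumbered PURPL-OE-2 library, with adjusted p up to 0.172.

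Tested directly, PURPL-OE-2 minus PURPL-OE-1 was -0.87 ± 0.0907 (adjusted p = 3.06e-08) for HOXD10 and -1.52 ± 0.221 (adjusted p = 1.06e-05) for HOXD3, both kept under all 10 alternatives. HOXC10 was the third gene of 17 HOX genes called in that comparison, beside 12.4% of all genes (6.18% higher and 6.19% lower), at 0.67 ± 0.211 (adjusted p = 0.0338). It measured 1.61, 1.98 and 3.09 CPM in PURPL-OE-1, 3.62, 3.79 and 3.20 in PURPL-OE-2, and 2.14, 2.78 and 2.94 in Ctrl. PURPL-OE-2 lay above both other groups, but neither overexpressing group differed from Ctrl (-0.23 ± 0.217, adjusted p = 0.432 and 0.44 ± 0.209, adjusted p = 0.0989), and the difference between them was lost with DESeq2 and without 2 of the 3 PURPL-OE-1 libraries or either unnumbered PURPL-OE-2 library, with adjusted p up to 0.222. HOXD8, HOXD9, HOXD11 and HOXD13 were also lower in PURPL-OE-2 than in PURPL-OE-1 by their point estimates, between -0.76 and -0.27 on the log2 scale, and none of these passed. Summed over cluster D, the level was 32.2 ± 1.01 CPM in PURPL-OE-1, 17.3 ± 0.916 CPM in PURPL-OE-2 and 22.0 ± 0.635 CPM in Ctrl (mean ± SD, n = 3), most of it HOXD10.

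HOXA9 measured 13.5, 10.6 and 13.5 CPM in PURPL-OE-1, 11.9, 10.9 and 13.8 in PURPL-OE-2, and 9.31, 9.38 and 9.35 in Ctrl. Both overexpressing groups lay above the narrow Ctrl range, at 0.43 ± 0.112 (adjusted p = 0.00284) and 0.39 ± 0.114 (adjusted p = 0.00701), and the PURPL-OE-2 call was lost without PURPL-OE-2 replicate 3 (adjusted p = 0.0688). HOXC4 measured 8.51, 8.99 and 9.26 CPM in PURPL-OE-1, 7.52, 7.68 and 8.03 in PURPL-OE-2, and 5.85, 5.51 and 6.20 in Ctrl. Again no library overlapped Ctrl, and the log2 fold change was 0.61 ± 0.115 (adjusted p = 7.35e-05) and 0.41 ± 0.119 (adjusted p = 0.00657). HOXA3 measured 2.68, 3.28 and 2.69 CPM in PURPL-OE-1, 2.45, 3.05 and 2.66 in PURPL-OE-2, and 1.79, 1.68 and 2.63 in Ctrl. It passed in PURPL-OE-1 at 0.52 ± 0.205 (adjusted p = 0.0442), a call lost under 7 of 10 alternatives (each left-out PURPL-OE-1 library, Ctrl replicate 1 or 2, DESeq2 and no filter, with adjusted p up to 0.186), and not in PURPL-OE-2, at 0.45 ± 0.210 (adjusted p = 0.0960).

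HOXB2 (ENSG00000173917.11, chr17:48540894-48545109, minus strand) was the one gene of cluster B with enough counts for a test, and it was tested only because of its level in Ctrl. It had 4, 18 and 3 counts in PURPL-OE-1, 0, 3 and 2 in PURPL-OE-2, and 23, 16 and 12 in Ctrl. PURPL-OE-2 lay below all Ctrl libraries, at -3.14 ± 0.737 (adjusted p = 0.00112). In PURPL-OE-1, 1 library with 18 counts reached the Ctrl range, and the difference did not pass (-1.08 ± 0.540, adjusted p = 0.118). Without that library, left out here because of its value, the PURPL-OE-1 difference was -2.40, so its size depended on 1 library. A gene that passes the filter only through the group where it is high had to differ, so the fall of HOXB2 is given as a description.

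The remaining genes did not pass in either overexpressing group. HOXA11 measured 17.8, 14.8 and 16.4 CPM in PURPL-OE-1, 18.8, 17.6 and 15.8 in PURPL-OE-2, and 14.97, 15.9 and 14.2 in Ctrl. HOXC11 measured 6.65, 6.65 and 6.33 CPM in PURPL-OE-1, 8.47, 8.79 and 6.92 in PURPL-OE-2, and 6.94, 6.80 and 5.47 in Ctrl. For both, the groups overlapped, and HOXC11 in PURPL-OE-2 came to 0.32 ± 0.129 (adjusted p = 0.0508). HOXA7 measured 2.29, 1.66 and 2.49 CPM in PURPL-OE-1, 1.65, 1.80 and 1.84 in PURPL-OE-2, and 2.14, 1.99 and 1.55 in Ctrl. These groups overlapped too. HOXD8 measured 1.86, 1.71 and 2.06 CPM in PURPL-OE-1, 0.693, 1.39 and 1.19 in PURPL-OE-2, and 1.36, 1.45 and 1.60 in Ctrl. HOXD9 measured 1.00, 0.629 and 1.31 CPM in PURPL-OE-1, 0.480, 0.787 and 0.615 in PURPL-OE-2, and 1.09, 0.860 and 1.19 in Ctrl. HOXD11 measured 0.823, 0.495 and 0.870 CPM in PURPL-OE-1, 0.426, 0.509 and 0.451 in PURPL-OE-2, and 0.507, 0.508 and 0.258 in Ctrl. PURPL-OE-1 lay above Ctrl for HOXD8 and PURPL-OE-2 below it for HOXD9, with adjusted p of 0.267 and 0.118.

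**Figure D4:**
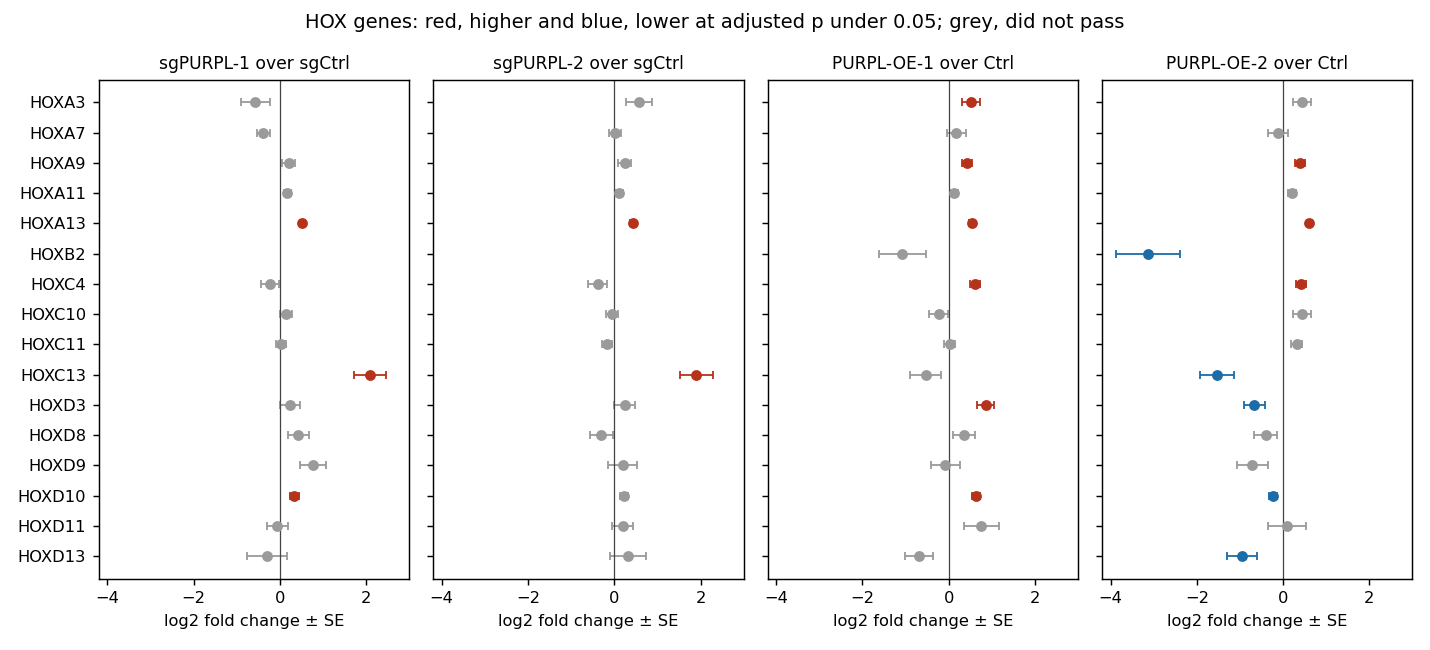
Log2 fold change ± SE (horizontal axis) of 16 tested HOX genes, in rows by cluster and paralogue number, in the 4 arms over their controls; red points passed higher and blue points lower at an adjusted p under 0.05 (edgeR, over all genes), grey points did not pass, and HOXB2 has no point in the knockdown panels. HOXA13 is red in all 4 panels, with values from 0.42 to 0.61.

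Lowering and raising PURPL were compared in 1 fit of all 18 libraries, as the mean effect of the guides minus the mean effect of overexpression. HOXC13 had the lowest adjusted p, at 3.04 ± 0.485 (adjusted p = 2.24e-06), followed by HOXC4 at -0.82 ± 0.197 (adjusted p = 0.000955), and HOXB2 at 3.21 ± 1.13 (adjusted p = 0.0245). In the knockdown experiment HOXC13 passed the filter only through the guide groups, where it is high. Its difference here is therefore a description. HOXB2 was tested only because of its level in Ctrl, where it is high, so its difference is a description. With it, 3 of 17 were called, beside 33.6% of all genes (18% higher and 15.6% lower). The HOXC13 and HOXC4 differences were kept in each of 21 alternatives, whereas HOXB2, with 0 to 5 counts per knockdown library, lost its call in 3 of 19 (without replicate 2 of sgPURPL-1, sgPURPL-2 or sgCtrl, with adjusted p up to 0.268). HOXA13, higher in all 4 arms, showed no detected difference between the experiments, at -0.10 ± 0.0730 (adjusted p = 0.316). Over the 4 arms, 10 of the 17 tested HOX genes were called at least once, beside 59% of all genes tested, and HOXA13 was the one called in all 4.

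HOXA13 made up most of the summed HOX CPM in every group, over the genes that could be counted. This sum is not corrected for length. HOXA13 has 5071 countable exon bases, against 1097 for HOXA9 and 692 for HOXC10. Summed HOX levels were 295 ± 7.41 CPM with sgPURPL-1, 281 ± 8.97 CPM with sgPURPL-2 and 232 ± 1.73 CPM in sgCtrl, and 248 ± 12.7 CPM in PURPL-OE-1, 242 ± 4.67 CPM in PURPL-OE-2 and 181 ± 4.34 CPM in Ctrl (mean ± SD, n = 3). HOXA13 made up 58.9% to 59.2% of the HOX counts with sgPURPL-1, 57.4% to 58.7% with sgPURPL-2 and 50.2% to 54.0% in sgCtrl. It made up 63.2% to 65.6% in PURPL-OE-1, 68.3% to 70.3% in PURPL-OE-2 and 59.99% to 61.6% in Ctrl. Its share was above that of the control in all 12 libraries of the arms. The genes of groups 4 to 8 took 12.9 ± 0.984 CPM with sgPURPL-1, 13.5 ± 0.882 with sgPURPL-2 and 14.9 ± 1.07 in sgCtrl, and 12.9 ± 0.761 CPM in PURPL-OE-1, 10.6 ± 0.647 in PURPL-OE-2 and 9.22 ± 0.230 in Ctrl. Most genes of these groups lie wholly inside another gene and could not be counted. The sum is almost wholly that of HOXA7, HOXC4 and HOXD8 and is not the level of these groups as a whole.

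Other genes bear on position or on HOX function. Over the 4 arms, calls were made at least once for 6 of 10 tested noncoding RNAs of the clusters, 5 of 8 cofactors, 16 of 22 other positional factors, 13 of 13 retinoid genes, 4 of 13 genes of the trithorax and demethylase list and 5 of 12 cluster neighbours, each beside the 59% of all genes given above. The clusters also hold noncoding RNAs, of which HOTAIR (cluster C) and HOTTIP (beside HOXA13) are the best known; in other cells they have been linked to chromatin marks over HOX genes. Of 18 such RNAs, 9 could be tested with knockdown and 10 with overexpression. With the guides, 3 of 9 were higher in each comparison and none lower, and in PURPL-OE-1 3 of 10 were higher and none lower, while in PURPL-OE-2 3 of 10 were higher and 1 lower. Of all genes tested, 24.5% and 24.4% were called with the guides and 39.6% and 38.5% with overexpression. Median log2 fold changes of these RNAs were 0.34 and 0.18 with the guides and 0.10 and 0.19 with overexpression.

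HOTAIR, like HOXA13, was higher in all 4 arms. It measured 81.9, 86.1 and 87.6 CPM with sgPURPL-1, 84.5, 88.0 and 78.0 with sgPURPL-2, and 65.6, 68.8 and 68.0 in sgCtrl. It then measured 77.0, 72.2 and 76.9 CPM in PURPL-OE-1, 83.5, 79.2 and 80.3 in PURPL-OE-2, and 53.7, 48.1 and 48.3 in Ctrl. No arm overlapped its control. The log2 fold change was 0.34 ± 0.0650 (adjusted p = 0.000207), 0.31 ± 0.0651 (adjusted p = 0.000653), 0.59 ± 0.0587 (adjusted p = 1.26e-09) and 0.69 ± 0.0589 (adjusted p = 5.62e-11) for sgPURPL-1, sgPURPL-2, PURPL-OE-1 and PURPL-OE-2, and the joint fit found the overexpression effect larger (guides minus overexpression -0.32 ± 0.0762, adjusted p = 0.000983).

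HOXC13-AS, the antisense RNA at the start of HOXC13, was higher with both guides. It measured 3.73, 3.01 and 4.62 CPM with sgPURPL-1, 4.30, 3.69 and 4.15 with sgPURPL-2, and 1.56, 0.623 and 0.940 in sgCtrl. The guide libraries did not overlap sgCtrl, at 1.87 ± 0.280 (adjusted p = 5.66e-06) and 1.97 ± 0.277 (adjusted p = 2.24e-06). Like HOXC13, it passed the filter only through the guide groups, where it is high, so its rise is a description. In the overexpression table it measured 0.393, 0.315 and 0.475 CPM in PURPL-OE-1, 0.480, 0.509 and 0.246 in PURPL-OE-2, and 0.741, 0.860 and 0.568 in Ctrl. The overexpressing libraries lay below Ctrl, and neither difference passed (-0.87 ± 0.413, adjusted p = 0.0950 and -0.85 ± 0.425, adjusted p = 0.118). No source used here gives the strand setting. Counts of nested genes followed strand, and on that basis the reads of HOXC13 and HOXC13-AS were taken as separate. HOXA11-AS was higher with both guides (0.46 ± 0.139, adjusted p = 0.0151 and 0.48 ± 0.138, adjusted p = 0.0106) and in PURPL-OE-2 (0.61 ± 0.161, adjusted p = 0.00293), and PURPL-OE-1 gave 0.35 ± 0.161 (adjusted p = 0.0821). HOTTIP was higher in PURPL-OE-1 (0.60 ± 0.161, adjusted p = 0.00334) and PURPL-OE-2 (0.66 ± 0.163, adjusted p = 0.00155), and lower with sgPURPL-2 than with sgPURPL-1 (-0.77 ± 0.181, adjusted p = 0.00463). HOXD-AS2, tested only through the overexpressing groups, where it is high, was at 1.73 ± 0.378 (adjusted p = 0.000450) in PURPL-OE-1 and 0.93 ± 0.418 (adjusted p = 0.0799) in PURPL-OE-2. HOXB-AS1 was lower in PURPL-OE-2 (-1.08 ± 0.391, adjusted p = 0.0281), and PURPL-OE-1 gave -0.19 ± 0.345 (adjusted p = 0.701).

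HOX proteins bind DNA together with TALE homeodomain partners of the PBX, MEIS and PKNOX families. Of 9 such partners 8 were tested, of which 2 were higher and 2 lower with sgPURPL-1, 2 higher and 1 lower with sgPURPL-2, 1 higher and none lower in PURPL-OE-1, and 2 higher and 1 lower in PURPL-OE-2. Beside these, 24.5%, 24.4%, 39.6% and 38.5% of all genes tested were called, in the same order. Median log2 fold changes of the partners were -0.07, -0.10, -0.0011 and 0.08. PBX3 measured 123, 118 and 129.9 CPM with sgPURPL-1, 104, 99.1 and 101 with sgPURPL-2, and 141, 140.3 and 159.7 in sgCtrl. Both guide groups lay below sgCtrl, at -0.25 ± 0.0634 (adjusted p = 0.00409) and -0.54 ± 0.0641 (adjusted p = 1.39e-07). PBX2 was higher with both guides, at 0.28 and 0.29 on the log2 scale. MEIS1 measured 163, 169.9 and 148 CPM in PURPL-OE-1, 179, 173 and 174 in PURPL-OE-2, and 136, 136 and 142 in Ctrl. It was higher in PURPL-OE-1 (0.22 ± 0.0535, adjusted p = 0.00160) and PURPL-OE-2 (0.34 ± 0.0536, adjusted p = 5.17e-06), and lower with sgPURPL-1 (-0.26 ± 0.0714, adjusted p = 0.00807), and sgPURPL-2 gave -0.14 ± 0.0710 (adjusted p = 0.162). MEIS3 was higher in PURPL-OE-2 and PBX3 lower there, with log2 fold changes of 0.21 and -0.15.

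Other transcription factors mark limb, head and trunk regions. Of 32 such genes, 21 were tested in the knockdown table, with 7 higher and 3 lower with sgPURPL-1 and 6 higher and 2 lower with sgPURPL-2. With overexpression, 22 were tested, and 6 were higher and 4 lower in PURPL-OE-1 and 7 higher and 4 lower in PURPL-OE-2. The shares of all genes called were 24.5%, 24.4%, 39.6% and 38.5%, in the same order. Median log2 fold changes of the tested factors were 0.07, 0.04, 0.08 and 0.08. PITX1 and TBX4, which both specify the hindlimb, moved in opposite directions with the guides. PITX1 measured 8.87, 7.37 and 9.67 CPM with sgPURPL-1, 6.36, 6.71 and 6.50 with sgPURPL-2, and 17.4, 13.3 and 11.4 in sgCtrl. TBX4 measured 2.101, 3.01 and 2.35 CPM with sgPURPL-1, 5.04, 4.28 and 4.23 with sgPURPL-2, and 1.13, 1.56 and 0.783 in sgCtrl. Neither overlapped sgCtrl in any guide library; PITX1 was lower, at -0.70 ± 0.143 (adjusted p = 0.000457) and -1.10 ± 0.150 (adjusted p = 1.65e-06), and TBX4 higher, at 1.10 ± 0.284 (adjusted p = 0.00428) and 1.95 ± 0.256 (adjusted p = 7.23e-07). TBX4 too passed the filter only through the guide groups, where it is high, so its rise is a description.

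ALX4 and ZIC1, factors of the head and of dorsal tissue, were higher with both guides. ALX4 measured 2.49, 2.77 and 3.14 CPM with sgPURPL-1, 1.07, 2.01 and 2.58 with sgPURPL-2, and 0.520, 0.856 and 0.157 in sgCtrl. ZIC1 measured 2.49, 3.80 and 3.57 CPM with sgPURPL-1, 6.20, 6.80 and 5.32 with sgPURPL-2, and 1.47, 2.02 and 1.64 in sgCtrl. Log2 fold changes were 2.43 ± 0.390 (adjusted p = 1.89e-05) and 1.87 ± 0.418 (adjusted p = 0.00121) for ALX4 and 0.93 ± 0.242 (adjusted p = 0.00476) and 1.82 ± 0.219 (adjusted p = 1.63e-07) for ZIC1, without overlap with sgCtrl. ALX4 passed the filter only through the guide groups, where it is high, so its rise is a description. In the overexpression groups ZIC1 was lower. It measured 7.15, 7.19 and 6.41 CPM in PURPL-OE-1, 4.74, 5.32 and 6.84 in PURPL-OE-2, and 10.8, 10.3 and 12.5 in Ctrl. These gave log2 fold changes of -0.69 ± 0.125 (adjusted p = 4.15e-05) and -0.97 ± 0.130 (adjusted p = 4.08e-07), and the guide effect minus the overexpression effect was 2.21 ± 0.228 (adjusted p = 9.25e-11). SHOX2, a limb and heart gene, was lower with both guides, at -0.26 and -0.27, and higher with overexpression, at 0.45 ± 0.0575 (adjusted p = 1.46e-07) and 0.56 ± 0.0578 (adjusted p = 3.03e-09), with guides minus overexpression at -0.76 ± 0.0769 (adjusted p = 4.84e-11). ISL1 was lower with sgPURPL-1, at -0.86 ± 0.288 (adjusted p = 0.0265), and sgPURPL-2 gave 0.01 ± 0.258 (adjusted p = 0.981).

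ALX1, a gene of the face, was close to absent outside one group. It measured 0.143, 0 and 0 CPM in PURPL-OE-1, 0.107, 0 and 0.0410 in PURPL-OE-2, and 0.818, 0.938 and 0.723 in Ctrl. It was tested there only through its level in Ctrl, and the knockdown libraries, sgCtrl included, held 0 to 0.158 CPM. HAND2 and SIX2 were higher with overexpression. HAND2, of the posterior limb bud, measured 4.79, 6.25 and 5.14 CPM in PURPL-OE-1, 5.92, 5.60 and 6.06 in PURPL-OE-2, and 2.77, 2.58 and 3.305 in Ctrl. SIX2, of kidney and face, measured 0.644, 0.315 and 0.554 CPM in PURPL-OE-1, 1.07, 1.06 and 0.820 in PURPL-OE-2, and 0.195, 0.117 and 0.155 in Ctrl. No overexpressing library overlapped Ctrl in either gene; the log2 fold change was 0.91 ± 0.157 (adjusted p = 2.18e-05) and 1.03 ± 0.157 (adjusted p = 3.49e-06) for HAND2 and 1.68 ± 0.515 (adjusted p = 0.00963) and 2.61 ± 0.476 (adjusted p = 5.08e-05) for SIX2. SIX2 was below the floor of the filter in every Ctrl library and was tested only through the overexpressing groups, where it is high, so its rise is a description. TBX15, a factor of trunk skin and limb, was lower in each overexpressing group, at -0.48 on the log2 scale in both, and EMX2 was higher in PURPL-OE-1 (0.70 ± 0.152, adjusted p = 0.000411) without a detected difference in PURPL-OE-2 (-0.08 ± 0.165, adjusted p = 0.758). FOXF2 was higher in PURPL-OE-1 (0.40 ± 0.0642, adjusted p = 9.94e-06) and in PURPL-OE-2 (0.76 ± 0.0642, adjusted p = 7.11e-11). TBX3, named here after its values were seen, was higher with the guides (0.47 ± 0.0573, adjusted p = 1.5e-07 and 0.42 ± 0.0573, adjusted p = 1.42e-06) and lower with overexpression (-0.45 ± 0.0510, adjusted p = 2.12e-08 and -0.21 ± 0.0510, adjusted p = 0.00165).

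**Figure D5:**
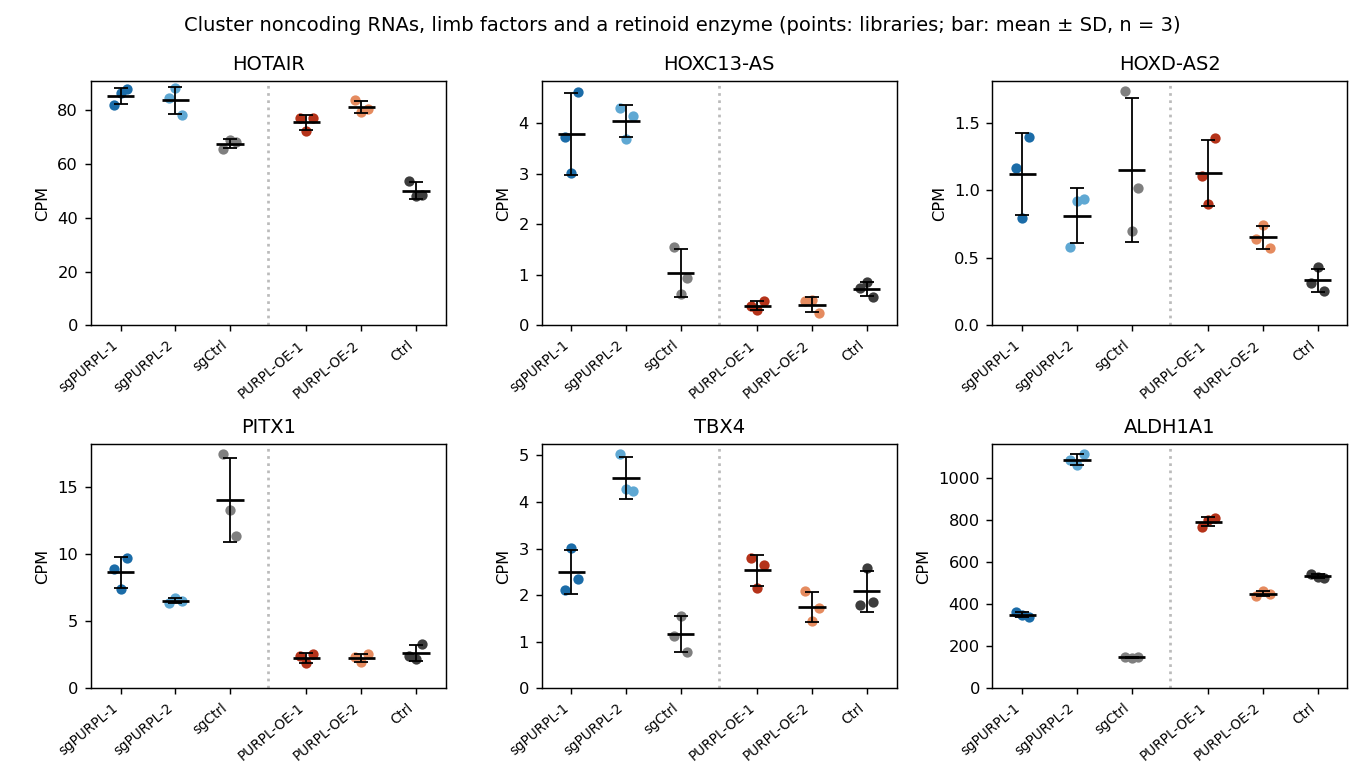
CPM (vertical axis, TMM-scaled, from 0) of 3 noncoding RNAs of the HOX clusters, the hindlimb factors PITX1 and TBX4 and the retinoid enzyme ALDH1A1 in each library; points are libraries, horizontal bars group means and whiskers ± SD (n = 3), and the dotted line parts the tables. HOTAIR is higher in all 4 arms than in their controls, HOXC13-AS is high with the guides alone, and ALDH1A1 is far apart between the guides.

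Retinoic acid sets HOX expression in embryos. Of 18 genes of retinoid synthesis, breakdown and signalling, 12 were tested with knockdown and 13 with overexpression. With sgPURPL-1, 1 of 12 was higher and 2 lower, with sgPURPL-2 4 higher and 4 lower, in PURPL-OE-1 4 of 13 higher and 4 lower, and in PURPL-OE-2 7 higher and 4 lower. Over all genes tested, the shares called were 24.5%, 24.4%, 39.6% and 38.5%, in the same order. Median log2 fold changes of the retinoid genes were -0.17, 0.13, 0.10 and 0.19. ALDH1A1, an enzyme that makes retinoic acid, measured 363, 348 and 339.9 CPM with sgPURPL-1, 1087, 1062 and 1116 with sgPURPL-2, and 149, 143 and 147 in sgCtrl. The 3 groups were far apart, at 1.26 ± 0.0578 (adjusted p = 1.65e-16), 2.90 ± 0.0598 (adjusted p = 2.1e-25) and, between the guides, 1.64 ± 0.0565 (adjusted p = 2.79e-19). DHRS3, which turns retinal back to retinol, measured 28.2, 27.2 and 29.4 CPM with sgPURPL-1, 74.8, 73.9 and 72.9 with sgPURPL-2, and 44.2, 48.2 and 36.9 in sgCtrl. The guides lay on opposite sides of sgCtrl, at -0.61 ± 0.0850 (adjusted p = 1.84e-06) and 0.78 ± 0.0778 (adjusted p = 5.06e-09).

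RDH10, which makes retinal from retinol, measured 196, 194 and 186 CPM in PURPL-OE-1, 99.6, 102 and 109.6 in PURPL-OE-2, and 92.3, 91.8 and 89.2 in Ctrl. It was higher in PURPL-OE-1, at 1.08 ± 0.0521 (adjusted p = 8.97e-17), and in PURPL-OE-2, at 0.19 ± 0.0528 (adjusted p = 0.00514), and lower with the guides, at -0.82 ± 0.0600 (adjusted p = 6.04e-12) and -0.37 ± 0.0590 (adjusted p = 1.66e-05). DHRS3 was higher in PURPL-OE-1 (1.04 ± 0.0645, adjusted p = 3.18e-14) and PURPL-OE-2 (0.67 ± 0.0655, adjusted p = 9.22e-10), as was ALDH1A3 (0.74 ± 0.109, adjusted p = 1.99e-06 and 0.84 ± 0.1095, adjusted p = 2.49e-07). ALDH1A2 was lower in PURPL-OE-1 alone (-1.12 ± 0.0894, adjusted p = 1.22e-11), with a tested difference between the 2 groups of 1.01 ± 0.0904 (adjusted p = 1.78e-09). CYP26B1, which degrades retinoic acid, was lower in both (-1.19 ± 0.400, adjusted p = 0.0184 and -1.78 ± 0.444, adjusted p = 0.00178), and it was tested there only because of its level in Ctrl, where it is high, so its fall is a description. RARB, a receptor gene that retinoic acid induces, was lower in PURPL-OE-1 (-0.80 ± 0.137, adjusted p = 2.12e-05) and in PURPL-OE-2 (-1.01 ± 0.143, adjusted p = 1.02e-06).

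The KMT2 complexes and the H3K27 demethylases keep HOX chromatin active. The list of 15 genes held these and also the transcription factors CDX1, CDX2 and CDX4. Of the 15, 12 were tested with knockdown and 13 with overexpression. With the guides 1 of 12 was called, PSIP1, higher with sgPURPL-2 (0.24 ± 0.0645, adjusted p = 0.00533), beside 24.5% of all genes with sgPURPL-1 and 24.4% with sgPURPL-2. With overexpression, 3 of 13 were lower in PURPL-OE-1 and 2 in PURPL-OE-2, beside 39.6% and 38.5% of all genes called in either direction. The count called in at least 1 arm, 4, depended on single control libraries: it was 7 without sgCtrl replicate 3 and 2 without Ctrl replicate 2. Median log2 fold changes were 0.09 and 0.000029 with the guides and -0.10 and -0.05 with overexpression. KDM6A, an H3K27 demethylase, measured 29.01, 31.2 and 29.5 CPM in PURPL-OE-1, 28.7, 27.2 and 30.5 in PURPL-OE-2, and 37.1, 37.4 and 36.1 in Ctrl. Both overexpressing groups lay below Ctrl, at -0.30 ± 0.0691 (adjusted p = 0.000698) and -0.36 ± 0.0701 (adjusted p = 0.000132). KMT2D was lower at -0.22 and -0.20 on the log2 scale in the 2 groups, and KMT2C at -0.15 in PURPL-OE-1, with -0.05 in PURPL-OE-2 (adjusted p = 0.444).

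The protein-coding neighbours within 250000 bases of the clusters numbered 22, of which 11 were tested with knockdown and 12 with overexpression. With sgPURPL-1, 1 was higher and 2 lower, with sgPURPL-2 2 higher and 1 lower, in PURPL-OE-1 2 higher and none lower, and in PURPL-OE-2 1 higher and none lower. Beside these counts, 24.5%, 24.4%, 39.6% and 38.5% of all genes tested were called, in the same order. Median log2 fold changes of the neighbours were -0.08, -0.06, 0.03 and 0.03. CBX5, a heterochromatin protein gene beside cluster C, was lower with the guides (-0.24 ± 0.0668, adjusted p = 0.00883 and -0.32 ± 0.0670, adjusted p = 0.000622) and higher with overexpression (0.16 ± 0.0505, adjusted p = 0.0119 and 0.13 ± 0.0507, adjusted p = 0.0413). CALCOCO1, at the other end of that cluster, next to HOXC13, was higher with both guides (0.21 ± 0.0641, adjusted p = 0.0155 and 0.30 ± 0.0640, adjusted p = 0.000644). SKAP2, at the anterior end of cluster A, was lower with sgPURPL-1 (-0.22 ± 0.0760, adjusted p = 0.0318), LNPK, beside HOXD13, was higher in PURPL-OE-1 (0.28 ± 0.0553, adjusted p = 0.000147), and MTX2, at the other end of cluster D, was higher with sgPURPL-2 (0.27 ± 0.0989, adjusted p = 0.0466).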

How the data were processed

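Poly(A) RNA of BJ cells was measured in 18 libraries, with adaptor ligation to single-stranded cDNA, 18 PCR cycles and no molecular identifiers, per the labels' protocols. The deposited values are raw counts of reads per gene in 1 table for each experiment. Processing used FastQC 0.11.9, cutadapt 3.3, HISAT2 2.1.0, SAMtools 1.11, featureCounts 2.0.1 of Subread and DESeq2 1.34.0, with hg38 and GRCh38.p13 named as builds, per the submitters' processing notes. The strand setting is not given in the sources used here.

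From these counts, the tables were fitted separately with edgeR 4.0.16 in R 4.3.3: TMM scaling, filterByExpr (minimum count 10, minimum total 15), robust quasi-likelihood test with 6 residual degrees of freedom, and Benjamini-Hochberg adjustment over all genes tested, with a threshold of 0.05. A joint fit of all 18 libraries compared the experiments. Alternatives were DESeq2 1.42.0, its size factors in edgeR, no filter, fits of the compared libraries alone, a replicate block and leaving out each library. The procedure was tested on simulated counts. Countable exon bases are exons of the GENCODE annotation given as a reference that no gene of the same strand covers. Levels of 1 count were 0.0358 to 0.0872 CPM. Replicates differed by more than counting noise, so none was counted as a copy.

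In the overexpression table, 5 of 9 columns carry no replicate number (3 of PURPL-OE-1 and 2 of PURPL-OE-2) and were used as unnumbered replicates. The HOX genes, the other lists and the tests were chosen with earlier results of these data known. HOX genes that passed the filter in at least 1 table are given by library, except for a result that is not reported here; of each other list, up to 3 members per direction and comparison with the largest log2 fold change among those past the threshold could be named, and some were left out.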

Additional observations from a re-analysis of the deposited data

Results flagged for a closer look

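These 7 results were singled out because the effect itself differed between groups by a direct test across all genes (edgeR's quasi-likelihood test with Benjamini-Hochberg adjustment). Between the guides, HOXA3 differed by 1.14 on the log2 scale (sgPURPL-2 minus sgPURPL-1, adjusted p = 0.0177), and all 3 sgPURPL-2 libraries lay above all 3 sgPURPL-1 libraries. That call was lost in 3 of 11 alternatives (adjusted p up to 0.185). Between the overexpressing groups (PURPL-OE-2 minus PURPL-OE-1), HOXD10 differed by -0.87 (adjusted p = 3.06e-08), HOXD3 by -1.52 (adjusted p = 1.06e-05) and HOXC10 by 0.67 (adjusted p = 0.0338), in each case without overlap of the 3 libraries on either side. The HOXC10 call was lost in 5 of 10 alternatives (adjusted p up to 0.222), whereas those of HOXD10 and HOXD3 were kept in all 10. Between the experiments (guides minus overexpression), HOXC13 differed by 3.04 (adjusted p = 2.24e-06), HOXC4 by -0.82 (adjusted p = 0.000955) and HOXB2 by 3.21 (adjusted p = 0.0245). HOXC13 passed the filter of the knockdown experiment only through the guide groups, where it is high, so its difference is a description. HOXB2 was tested only because of its level in Ctrl, where it is high, and its call was lost in 3 of 19 alternatives (adjusted p up to 0.268), so its difference is a description. PURPL itself was higher in PURPL-OE-1 (166 to 178 CPM) than in PURPL-OE-2 (114 to 129 CPM), and its part in the differences between these groups was not tested.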

How the results depend on the processing

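Of 1389 values of single genes recomputed under the alternatives, 1338 kept their direction and their side of the threshold, 39 no longer passed, 12 newly passed and 0 changed direction. HOX genes called with each library left out in turn numbered 2 to 6 for sgPURPL-1 (4 with all libraries), 2 to 3 for sgPURPL-2 (2), 0 to 1 between the guides (1), 5 to 7 for PURPL-OE-1 (6), 5 to 8 for PURPL-OE-2 (8), 2 to 4 between the overexpressing groups (3) and 2 to 3 in the joint fit (3). The count for sgPURPL-1 was 2 without sgCtrl replicate 1, that between the guides 0 without sgPURPL-1 replicate 1 or 2 or sgPURPL-2 replicate 1, and that for PURPL-OE-2 5 without its second unnumbered library. Over the arms, calls numbered 4 to 6 for the cofactors, 5 to 7 for the noncoding RNAs, 15 to 17 for the positional factors, 12 to 13 for the retinoid genes, 2 to 7 for the trithorax and demethylase list (7 without sgCtrl replicate 3, 2 without Ctrl replicate 2) and 3 to 6 for the cluster neighbours (3 with DESeq2 and without sgCtrl replicate 2 or 3). The causes were not tested. In the knockdown table, same-numbered libraries did not deviate together (r from -0.14 to 0.05, beside -0.13 to 0.17 for libraries with different numbers). No pairing by number was detected, which does not exclude that same-numbered libraries were handled together. With the replicate block the HOX counts were 4, 2 and 1, and the list counts 5, 6, 16, 13, 4 and 4 in the order above. No paired analysis was possible for the overexpression table because 5 of its columns carry no number. At the depth of the knockdown table, 1 count was 0.0778 to 0.0872 CPM, which limits genes with few counts.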
